A study of Mus musculus with 14 samples.

Results

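The subunit genes of oxidative phosphorylation were followed in C2C12 cells, a mouse myoblast line that leaves the cell cycle and fuses into myotubes in medium with horse serum. The members were chosen by gene symbol alone. They are the protein-coding rows of the expression table whose symbols begin with Nduf and a subunit letter and number, Uqcr, Cox and a number from 4 to 8, Atp5, or Sdh with the letters a to d. This gave 84 genes of 24016 in the table. By symbol, 37 belong to complex I, 4 to complex II, 8 to complex III, 18 to complex IV and 15 to complex V. The remaining 2, Atp5s and Atp5sl, share the Atp5 symbol but do not encode subunits of the enzyme. They are described apart but, since the rule takes them in, stay in every count given over the members. No measured value entered the rule, but the choice was made with earlier results of these data known.

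C2C12 cells were transfected with control siRNA (siCtrl) or with a pool of siRNAs against Klf5 (siKlf5), a zinc-finger transcription factor. Poly(A) RNA was sequenced on days 0, 1, 2 and 3 of differentiation. There was 1 library for each siRNA and day, 8 in all, and no condition had a replicate. All libraries come from 1 cell line. The knockdown by siRNA was transient, and the Klf5-deleted C2C12 clones that the study also made are not among these libraries. The study asked how Klf5 takes part in the differentiation of myoblasts, and the comparison of the 2 siRNAs addresses that question for the genes described here.

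Oxidative phosphorylation is the route by which mitochondria make ATP from oxygen. Complexes I and II (NADH dehydrogenase and succinate dehydrogenase) feed electrons into the inner membrane, complex III passes them to cytochrome c, complex IV (cytochrome c oxidase) gives them to oxygen, and complex V (ATP synthase) uses the resulting proton gradient. Most subunits are encoded in the nucleus and a few in mitochondrial DNA, and the table held 0 mitochondrially encoded genes. Several complex IV subunits exist as a ubiquitous form and as a form found in heart and skeletal muscle, and this switch is known from muscle development.

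Values are the deposited FPKM values, which correct for transcript length but were scaled to a matrix total of 10000000, so they exceed FPKM in the usual sense. A gene was called expressed when its mean over the 8 libraries was at least 1. Recovered depth lay between 7850497 reads (siCtrl, day 1) and 20301506 reads (siCtrl, day 2), and on day 2 the siCtrl library was 1.72 times as deep as its siKlf5 partner. Klf5 itself stood at 223.8, 381.1, 614.4 and 933.1 in siCtrl cells on days 0 to 3 and at 35.1, 159.6, 192.1 and 211.4 in siKlf5 cells, so it was lower in the knockdown on each day. Of the 8 skeletal muscle markers 0 were at 0 in all libraries, and their summed value lay between 2595 and 16907. The 4 adipocyte markers summed to at most 4.74, the 2 brown adipocyte markers to at most 1.54, the 3 endothelial markers to at most 5.36 and the 3 leukocyte markers to between 6.64 and 24.5, with Cd68 at up to 23.5. Plin1 and Lep were at 0 in every library. In bulk RNA, fewer cells of a kind and less RNA per cell cannot be told apart.

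Most of the machinery was transcribed at a high level. Of the 84 genes, 80 were expressed, and their median mean value was 566.2, above 94.5% of the 14312 expressed transcripts, whose median was 74.0. Together the 84 genes took between 0.647% (siCtrl, day 2) and 0.764% (siCtrl, day 1) of the recovered reads. Median values per complex were 450.1 for complex I, 555.5 for complex II, 558.8 for complex III, 771.1 for complex IV and 859.0 for complex V. Within the complexes the highest members were Ndufa4 with 1133, Sdha with 623.9, Uqcrq with 839.2, Cox6a1 with 1485 and Atp5b with 2744. Ndufa4 carries a complex I symbol but encodes a subunit of complex IV, Sdha is the flavoprotein that oxidises succinate, Uqcrq is a small subunit of complex III, and Atp5b is the catalytic beta subunit of ATP synthase. Members below a mean of 100 were few. They were Ndufa11, Ndufa4l2, Cox6a2, Cox7a1, Atp5s and Atp5sl.

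**Figure D1:**
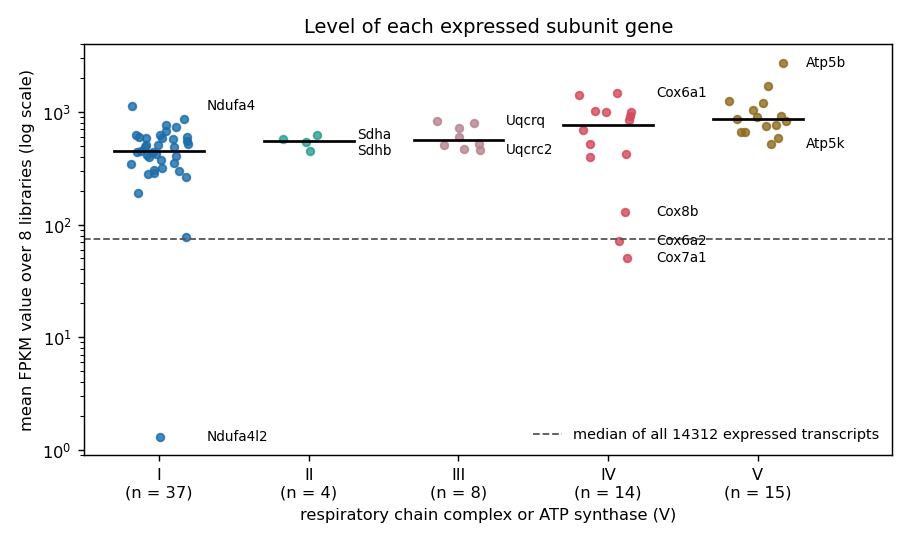
Mean FPKM value over the 8 libraries (log axis) of each expressed subunit gene, by complex; bars mark medians and the dashed line the median of all 14312 expressed transcripts. Atp5b was highest at 2744, and Cox6a2, Cox7a1 and Ndufa4l2 lay below the dashed line.

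The 4 members that were not expressed were all complex IV genes. Cox6b2, the testis form of subunit 6b, had 0 reads in all 8 libraries. Cox4i2, Cox7b2 and Cox8c had reads in 1 library each, namely 3 reads in siKlf5 cells on day 2, 8 reads in siCtrl cells on day 0 and 4 reads in siCtrl cells on day 0. Their ubiquitous partners were abundant, and Cox4i1 ranged from 1045 to 1625 and Cox6b1 from 696.0 to 933.0. Ndufa4l2, a relative of Ndufa4 that is known to be induced by hypoxia, just passed the filter with a mean of 1.31. It was at 6.38, 0, 0 and 0 in siCtrl cells and at 2.34, 0, 0 and 1.75 in siKlf5 cells, which amounts to at most 12 reads per library.

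The subunit genes were also steady across the 8 libraries. Among the 74 members with a mean of at least 100, the highest library exceeded the lowest by a median of 1.40-fold, and 72 of them (97.3%) spanned less than 2-fold. Among all 6039 transcripts with a mean of at least 100 the median was 1.63-fold, and 74.7% spanned less than 2-fold. These 2 sets differ in level, with a median mean of 586.9 for the 74 members and 218.1 for the 6039 transcripts. The part of level in the narrower range was not tested. The lowest value was found in the siCtrl library of day 2 for 28 of the 74 members, whereas the siKlf5 library of day 2 held the lowest value for 0 and the highest for 17.

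The first comparison was between siKlf5 and siCtrl cells on each day. With 1 library per condition it has no test, and ratios are log2((siKlf5 + 0.1)/(siCtrl + 0.1)). The median log2 ratio of the 80 expressed members was 0.04, 0.02, 0.20 and 0.08 on days 0 to 3. The median over all expressed transcripts was 0.00, 0.03, -0.03 and 0.00 on the same days. Members with a ratio above 0 numbered 48, 43, 69 and 57 of 80, beside 7171, 7593, 6371 and 6946 of all 14312 expressed transcripts. Thus the genes as a group were closest to equal on days 0 and 1 and were shifted upward in siKlf5 cells on day 2.

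Few members passed 1.5-fold, the cutoff of the study, and 73 of the 80 stayed within it on all 4 days. On day 0, 0 members were higher and 4 lower, beside 9.22% and 11.1% of all expressed transcripts. On day 1, 1 was higher and 3 lower, beside 16.4% and 11%. On day 2 there was 1 in each direction, beside 7.69% and 13%, and on day 3 again 1 in each direction, beside 10.7% and 12.5%. These shares lie below the background, which holds many transcripts of low level. For the 6039 transcripts averaging at least 100, the shares that were higher were 0.596%, 4.45%, 1.03% and 1.79% on days 0 to 3, and the shares that were lower were 2.42%, 2.91%, 2.25% and 2.68%. Of the 74 members of that level 1 was lower on day 0 and 1 higher on day 2, with 0 otherwise. Thus 72 of the 74 stayed within 1.5-fold on all 4 days, beside 86.3% of the 6039 transcripts, whose median level was lower (218.1 against 586.9).

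**Figure D2:**
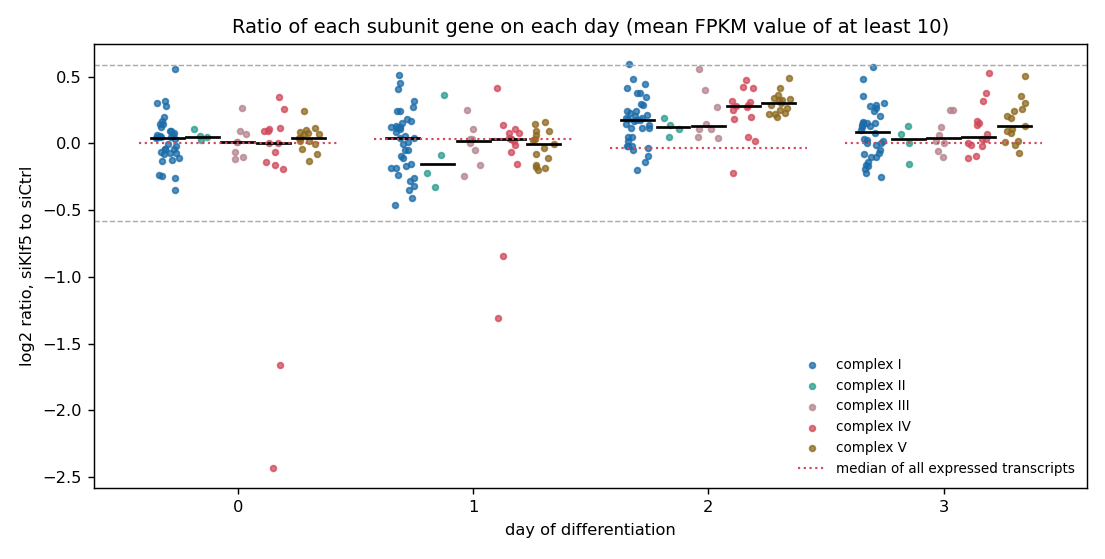
Log2 ratio of siKlf5 to siCtrl on each day for the 77 subunit genes of the 5 complexes with a mean FPKM value of at least 10; short bars are medians per complex, dotted lines the median of all expressed transcripts and dashed lines 1.5-fold. The points gather around 0 except on day 2, where complex V lies highest with a median of 0.30; the points far below on days 0 and 1 are Cox8b, Cox7a1 and Cox6a2.

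The members that passed 1.5-fold were mostly of low level. On day 0 they were Cox7a1, Cox8b, Ndufa4l2 and Atp5s, all lower in siKlf5 cells. On day 1 Atp5s was higher, and Cox6a2, Cox7a1 and Atp5sl were lower. On day 2 Ndufa5, an accessory subunit in the matrix arm of complex I, was higher with 488.8 against 324.0, a log2 ratio of 0.59 (95% interval 0.16 to 1.03, exact and for counting error only), and Atp5sl was lower. On day 3 Ndufa4l2 was higher and Atp5s was lower. No member passed 1.5-fold in the same direction on 3 of the 4 days. Without Atp5s and Atp5sl, 78 members remain, of which 0, 0, 1 and 1 were higher and 3, 2, 0 and 0 lower on days 0 to 3.

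Day 2 differed from the other days by complex and by coverage. All 15 complex V genes, all 8 of complex III and all 4 of complex II had a ratio above 0 on that day, together with 13 of the 14 of complex IV and 28 of the 37 of complex I. The median log2 ratio was 0.30 for complex V, 0.28 for complex IV, 0.17 for complex I, 0.13 for complex III and 0.12 for complex II. Atp5b was at 1913 in siCtrl and 2690 in siKlf5 cells, a log2 ratio of 0.49, whereas on day 0 it was at 2915 and 3077. For Uqcrq the values on day 2 were 622.4 and 913.5, a log2 ratio of 0.55.

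The day 2 ratio rose with the number of reads per exon base, both in the members and in other transcripts, and in each range the median of the members was the higher of the pair. The authors kept at most 3 reads per position, and the siCtrl library of day 2 was the deepest, with a median of 1.74 reads per exon base over the 84 genes against 1.16 in its siKlf5 partner. Over the 371 other expressed transcripts with 2 to 4 reads per base the median log2 ratio on day 2 was 0.25, and over the 16 members in that range it was 0.28. Most members, 46 of 80, had 1 to 2 reads per base, and their median was 0.19 against 0.09 for 968 other transcripts. With 0.5 to 1 it was 0.08 for 10 members against -0.01 for 2065 other transcripts. Over the 10721 other transcripts with fewer than 0.5 it was -0.08, and over the 6 members it was -0.02. On days 0, 1 and 3 the medians of the other transcripts lay between -0.09 and 0.07 in every range. Among the 12 members that never exceeded 1 read per base the median log2 ratio on day 2 was 0.02. The part of coverage in the day 2 shift was not tested.

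**Figure D3:**
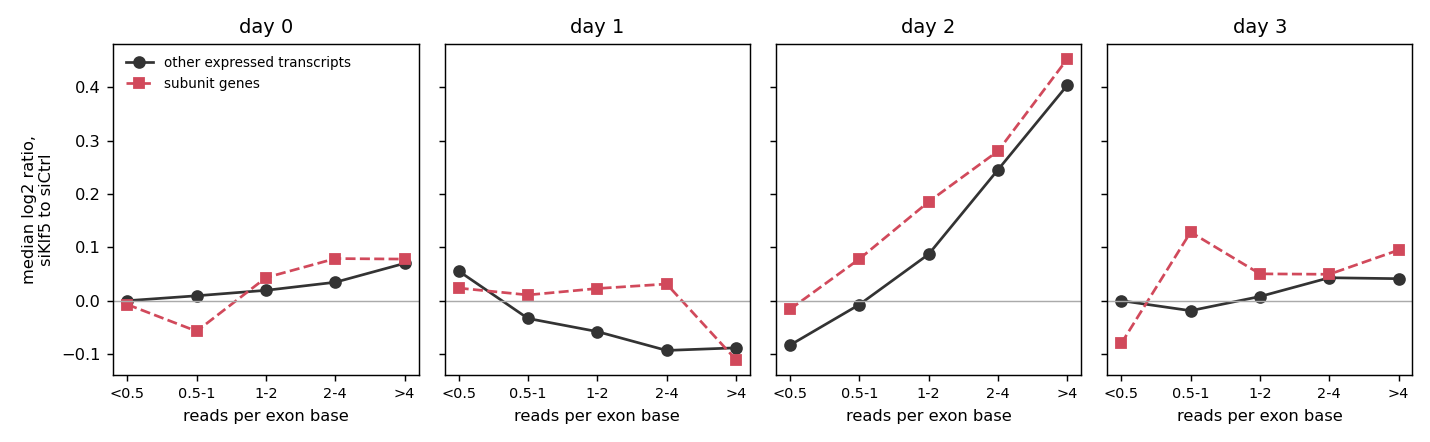
Median log2 ratio of siKlf5 to siCtrl on each day by reads per exon base (mean of the day's 2 libraries), for the 80 expressed members and for all other expressed transcripts. On day 2 both lines climb, with the members above the others in each range, for the other transcripts from -0.08 below 0.5 reads per base to 0.40 above 4, and on the other days the line of the other transcripts stays between -0.09 and 0.07; the highest range holds 1 or 2 members on each day.

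The knockdown was then tested over the 4 days with limma, in an additive fit of siRNA and day across all 14312 expressed transcripts. The spread in this fit is how far the siRNA difference varied between days, with 3 residual degrees of freedom, not a replicate error. For Klf5 itself the difference was -1.94 (SE 0.20, adjusted p = 0.0244 by limma). Of the 80 members 0 passed in either direction at an adjusted p under 0.05, beside 0.00699% of all transcripts higher and 0.0559% lower. At an unadjusted p under 0.05 there were 6 members and 1374 transcripts in all. The median difference of the members was 0.09 on the log2 scale, beside 0.01 for all transcripts. Of the members, 66 of 80 estimates were above 0, beside 7460 of all 14312. Without day 2 the median of the members was 0.02.

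The estimates at both ends were small except in genes of low level. Among members with a mean of at least 10, the highest were Uqcr10, a small subunit of complex III, with 0.24 (SE 0.08, adjusted p = 0.428 by limma), Ndufb7 with 0.23 and Ndufa12 with 0.21, both accessory subunits of complex I. Uqcr10 was at 494.3, 421.2, 489.1 and 461.0 in siCtrl cells and at 595.0, 430.7, 646.2 and 549.4 in siKlf5 cells, so it was higher in the knockdown on each day, but on day 1 by a log2 ratio of only 0.03. The lowest were Cox8b with -0.52 (SE 0.41), Cox7a1 with -0.51 (SE 0.38) and Atp5sl with -0.42 (SE 0.23). Of the 80 members, 16 were higher on all 4 days, and 2, the complex I accessory subunits Ndufs4 and Ndufs6, were lower on all 4, beside 9.05% and 9.03% of all expressed transcripts. All of these members had a mean of at least 100, a level at which 11.7% of 6039 transcripts were higher and 10.2% lower on all 4 days. Ndufs6 was at 502.2, 486.7, 340.0 and 384.4 in siCtrl cells and at 466.4, 413.9, 328.2 and 322.7 in siKlf5 cells, an estimate of -0.16 (SE 0.07, adjusted p = 0.534 by limma).

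Differentiation was compared next, as day 3 against day 0 in the same limma fit, with the libraries of the 2 siRNAs standing in for replicates. The muscle isoforms Cox6a2 and Cox8b rose many-fold, and the other members that passed the test changed by less than 2-fold. Of the 80 members, 7 were higher and 10 lower on day 3, beside 12.8% and 17.6% of all expressed transcripts. All 17 moved in the same direction under both siRNAs, but the test selects for this, since a difference between the siRNAs enters its residual. The median difference of the members was -0.11 on the log2 scale and that of all transcripts was -0.09. Scaling by median ratios moved the median of all transcripts by 0.10, to 0.01, and the median of the members then was 0.01, with 9 members higher and 1 lower. With upper-quartile scaling 9 were higher and 2 lower. The 7 that were higher were called under both of these scalings, whereas of the falls only that of Ndufs8 was called under both. Without day 2 there were 4 higher and 8 lower members. Without the mean-variance trend of limma 2 were higher and 0 lower, and the 2 were Cox6a2 and Cox8b.

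In complex I, 5 of 37 genes rose and 8 fell, beside 12.8% and 17.6% of all expressed transcripts. Among those that rose were Ndufv3 with 0.58 (SE 0.19), Ndufa13 with 0.49 (SE 0.10), Ndufs4 with 0.44 (SE 0.13) and Ndufa7 with 0.42 (SE 0.13), all accessory subunits. Ndufa13 was at 229.2, 296.4, 306.1 and 328.0 in siCtrl cells and at 242.2, 332.6, 349.6 and 333.1 in siKlf5 cells. Under both siRNAs day 0 was thus the lowest day, and the estimate for day 3 against day 0 had an adjusted p of 0.00952 by limma.

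Those that fell were Ndufa5, Ndufs8, Ndufb6, Ndufs6, Ndufc2, Ndufa2, Ndufa8 and Ndufb10, by 0.60 to 0.35 on the log2 scale. Ndufs8, a core subunit that holds iron-sulfur clusters, was at 439.5, 412.1, 406.2 and 323.7 in siCtrl cells and at 492.9, 446.4, 369.2 and 320.9 in siKlf5 cells, an estimate of -0.53 (SE 0.11, adjusted p = 0.00920 by limma). Day 3 was its lowest day under both siRNAs. Ndufa5 was at 496.1 on day 0 and 291.6 on day 3 in siCtrl cells and at 413.7 and 307.0 in siKlf5 cells, an estimate of -0.60 (SE 0.18, adjusted p = 0.0391 by limma). With median-ratio scaling only the fall of Ndufs8 was called, and with upper-quartile scaling only those of Ndufs8 and Ndufs6.

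In complexes II and III, 0 of 12 members passed the test, beside 12.8% of all expressed transcripts higher and 17.6% lower. Cyc1, a complex III gene that the symbol rule leaves out, did pass with -0.50 (SE 0.12) and is given below with the other lists. Sdha was at 634.7 on day 0 and 604.4 on day 3 in siCtrl cells and at 655.4 and 606.6 in siKlf5 cells, an estimate of -0.09 (SE 0.10). Uqcrq was estimated at -0.25 (SE 0.17). In complex V, 0 genes rose and 2 of 15 fell. Atp5o, the stalk subunit known as OSCP, was estimated at -0.48 (SE 0.13, adjusted p = 0.0261 by limma). Of the 3 genes that encode the same ring subunit c, Atp5g1 fell by 0.42 on the log2 scale (SE 0.12, adjusted p = 0.0281 by limma), and Atp5g2 and Atp5g3 were estimated at -0.01 (SE 0.11) and -0.15 (SE 0.13). Atp5g1 was the lowest of the 3, with a mean of 587.0 against 1213 for Atp5g2 and 1706 for Atp5g3. Atp5b had an estimate of -0.25 (SE 0.16). The falls of Atp5o and Atp5g1 were not called under median-ratio or upper-quartile scaling, and both genes resemble 1 other place in the genome.

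**Figure D4:**
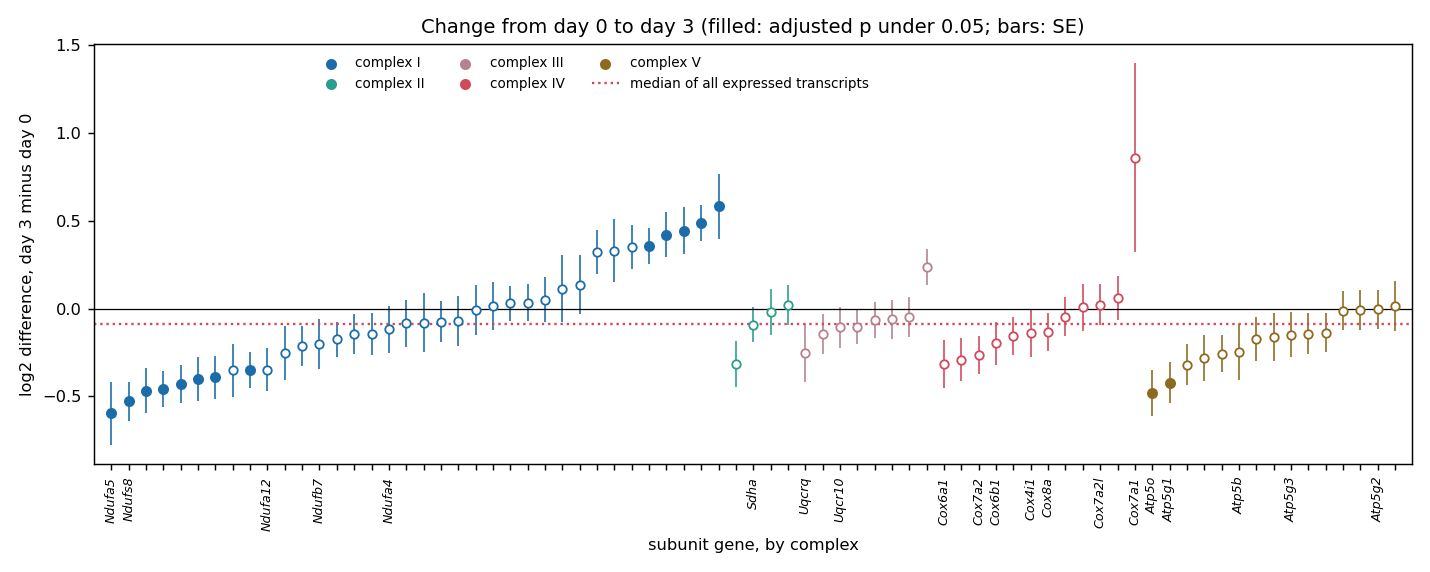
Log2 difference of day 3 minus day 0 in the limma fit, with SE, for 75 subunit genes with a mean FPKM value of at least 10; filled points have an adjusted p under 0.05, the dotted line is the median of all expressed transcripts (-0.09), and symbols are given for part of the genes. Cox6a2 (10.53, a size that depends on the 0.1 added to values of 0) and Cox8b (3.96) are left off the axis. The members of complexes II and III hold no filled point.

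In complex IV, 2 of 14 genes rose and 0 fell, beside 12.8% and 17.6% of all expressed transcripts. Both that rose encode heart and muscle forms. Cox6a2 (NM_009943, mm9 chromosome 7, 135348949 to 135349880, minus strand, with 3 exons) had 0 reads on day 0 under both siRNAs. In siCtrl cells it then reached 53.7 on day 1, 102.9 on day 2 and 153.7 on day 3, and in siKlf5 cells 29.8, 88.1 and 142.6. It was thus present on days 1 to 3 in each library and highest on day 3 under both siRNAs. Since reads came in groups of about 6, the floor for a value of 0 was set at 3 groups, or 18 reads, per library. The day 3 value of Cox6a2 was 10.98-fold above this floor in siCtrl cells and 9.26-fold above it in siKlf5 cells. These folds carry no counting error for day 3 and are not lower bounds. Exact lower limits of the log2 ratio of day 3 to day 0 were 3.08 in siCtrl and 2.82 in siKlf5 cells. They cover counting error only. The limma fit did not use the floor but took 0 as log2(0.1). Its adjusted p of 3.8e-06 by limma therefore does not belong to these folds or limits. For Cox6a2 the adjusted p by limma was 0.0042 without day 2 and 0.0016 without the trend. Its ubiquitous counterpart Cox6a1 was at 1573, 1643, 1117 and 1281 in siCtrl cells and at 1695, 1679, 1552 and 1343 in siKlf5 cells. Cox6a1 had an estimate of -0.32 (SE 0.13, adjusted p = 0.116 by limma). Of the summed values of the pair, Cox6a2 made up 0%, 3.16%, 8.43% and 10.7% in siCtrl cells and 0%, 1.74%, 5.37% and 9.60% in siKlf5 cells. The ubiquitous form therefore remained the larger part on day 3.

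Cox8b (NM_007751, mm9 chromosome 7, 148084841 to 148086345, minus strand, with 2 exons) followed the same order of days. It was at 34.0, 56.5, 196.5 and 236.4 in siCtrl cells and at 6.23, 75.2, 199.2 and 220.8 in siKlf5 cells. In FPKM units the step between days 1 and 2 was the largest under both siRNAs. Day 3 was 6.96-fold above day 0 in siCtrl cells and 35.4-fold in siKlf5 cells, but the latter rests on 4 reads on day 0 (95% interval of the log2 ratio 2.11 to 12.81, exact and for counting error only). The fitted difference was 3.96 (SE 0.58, adjusted p = 0.00182 by limma). Cox8b was not called when transcripts of low level were kept in the fit (adjusted p = 0.0856), and it was called under the other alternatives tried, also with day as a number (adjusted p = 0.00540 by limma). Cox8a was at 885.0 and 811.5 on days 0 and 3 in siCtrl cells and at 885.8 and 801.8 in siKlf5 cells. Of the summed pair Cox8b rose from 3.70% to 22.6% in siCtrl cells and from 0.699% to 21.6% in siKlf5 cells.

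Cox7a1, the third heart and muscle form, did not follow them. It was at 49.4, 67.2, 62.0 and 42.0 in siCtrl cells and at 15.5, 27.1, 82.9 and 60.5 in siKlf5 cells. The siCtrl values show no order of days, and the siKlf5 values were lower on days 0 and 1 and higher on days 2 and 3. The estimate for day 3 against day 0 was 0.86 (SE 0.54, adjusted p = 0.271 by limma). Each value rests on 10 to 75 reads, and on day 0 the log2 ratio of siKlf5 to siCtrl was -1.66 with a 95% interval of -5.45 to 0.96 (exact, counting error only). Its counterpart Cox7a2 was between 323.5 and 452.3 in the 8 libraries, with an estimate of -0.27 (SE 0.11, adjusted p = 0.101 by limma). Cox7a2l, a relative that joins complexes III and IV into supercomplexes, was between 432.2 and 556.6.

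**Figure D5:**
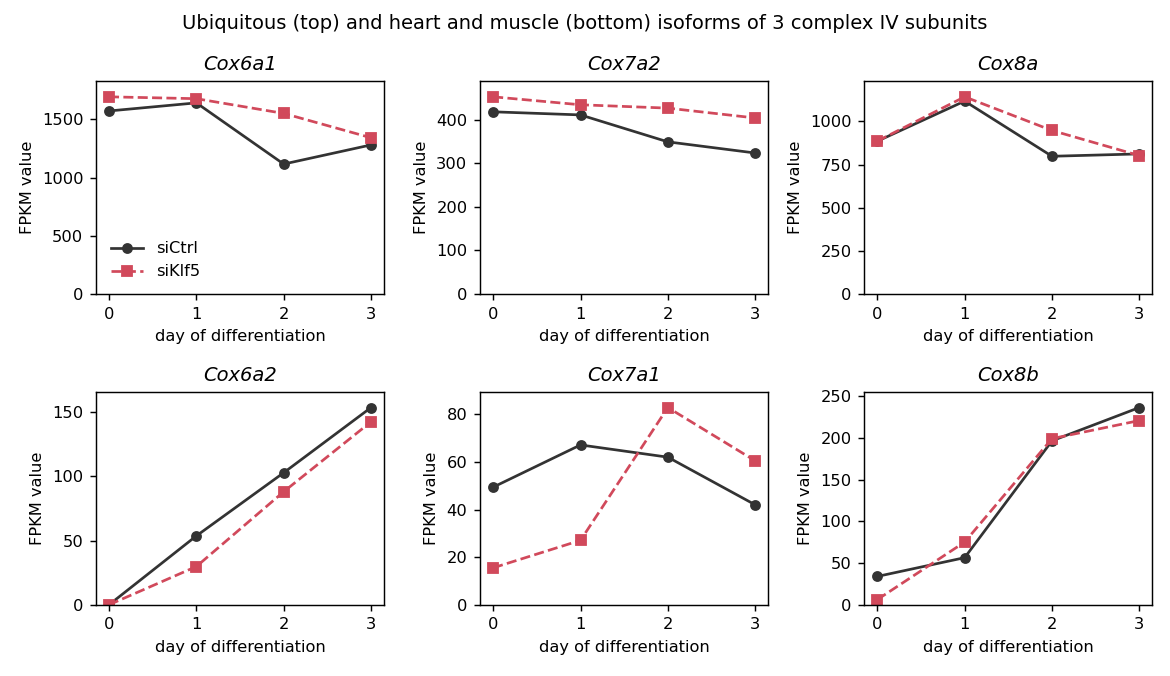
FPKM value by day in siCtrl (circles, solid) and siKlf5 (squares, dashed) cells of the ubiquitous isoforms Cox6a1, Cox7a2 and Cox8a (top) and the heart and muscle isoforms Cox6a2, Cox7a1 and Cox8b (bottom); each point is 1 library and each panel has its own axis from 0. Cox6a2 climbs from 0 to 153.7 and 142.6 and Cox8b to 236.4 and 220.8, and the curves of Cox7a1 cross between days 1 and 2.

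Both genes rose under each siRNA, and a difference between the siRNAs was not detectable at this depth. The log2 ratio of siKlf5 to siCtrl for Cox6a2 was -0.85 on day 1 (95% interval -2.96 to 1.05), -0.22 on day 2 (-1.11 to 0.61) and -0.11 on day 3 (-0.88 to 0.66). For Cox8b the ratio on day 0 was -2.43 (-10.34 to 1.27) and that on day 1 was 0.41 (-1.63 to 2.60). On days 2 and 3 it was 0.02 (-0.79 to 0.79) and -0.10 (-0.95 to 0.74). The intervals are exact and cover counting error only. Whether the change per day differed between the siRNAs was tested directly with limma, by the interaction of siRNA and day. Of the 80 members 0 passed, beside 0% of all 14312 transcripts in either direction. At an unadjusted p under 0.05 there were 2 members, Cox7a1 and Ndufa1, and 316 transcripts in all. For Cox7a1 the difference in slope was 0.83 log2 units per day (SE 0.27, adjusted p = 1.00 by limma), for Cox8b 0.66 (SE 0.43) and for Cox6a2 0.03 (SE 1.39).

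The transcripts of paired isoforms could be told apart by sequence. The longest run of bases shared by the spliced transcripts of Cox6a1 and Cox6a2 was 12, that of Cox8a and Cox8b was 10 and that of Cox7a1 and Cox7a2 was 12. Other members resemble further places in the genome. Of the 84 transcripts, 17 had at least 1 other place in mm9 with 95% identity over at least 50% of their length, and Atp5l had the most with 10. Of the 17 members called for day 3 against day 0, 2 (Atp5g1 and Atp5o) were among these, and their values are uncertain to that extent.

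The sequences before the start of 3 of these genes are shown because Cox8b rose, and Cox8a and Cox6a1 are the ubiquitous counterparts of the 2 genes that rose. They are the 250 bases before the start of Cox8b (chr7:140900447-140900696, minus strand), of Cox8a (chr19:7217617-7217866, minus strand) and of Cox6a1 (chr5:115348959-115349208, minus strand) from RefSeq on GRCm38.p6. Capitals mark matches to CAGCTG, the E-box form favoured by MyoD and myogenin, to the GC box CCGCCC, to which Sp and Klf factors are known to bind, and to GCATGCGC or GCACGCGC, the core words of nuclear respiratory factor 1 (NRF1), a regulator of many respiratory chain genes.
Cox8b: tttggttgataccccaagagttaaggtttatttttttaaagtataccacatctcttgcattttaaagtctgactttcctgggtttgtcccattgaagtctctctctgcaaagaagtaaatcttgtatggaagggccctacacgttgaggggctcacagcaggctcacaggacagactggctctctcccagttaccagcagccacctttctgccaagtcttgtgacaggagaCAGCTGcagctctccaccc
Cox8a: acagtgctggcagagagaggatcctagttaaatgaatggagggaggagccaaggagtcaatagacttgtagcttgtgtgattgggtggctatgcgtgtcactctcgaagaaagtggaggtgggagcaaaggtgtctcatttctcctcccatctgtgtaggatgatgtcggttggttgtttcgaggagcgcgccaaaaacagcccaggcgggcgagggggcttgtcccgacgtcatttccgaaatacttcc
Cox6a1: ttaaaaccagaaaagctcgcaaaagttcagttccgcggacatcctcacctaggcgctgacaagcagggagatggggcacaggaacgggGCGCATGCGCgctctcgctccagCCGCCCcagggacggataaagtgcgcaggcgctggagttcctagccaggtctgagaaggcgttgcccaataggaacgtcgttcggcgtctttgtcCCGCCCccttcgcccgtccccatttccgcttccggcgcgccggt

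The Cox8b window holds 1 E-box and neither of the other motifs. The Cox8a window holds none of the 3. The Cox6a1 window holds 2 GC boxes and a palindrome that matches the NRF1 word on both strands, where the 2 matches overlap. The CACCC site that the study names for Klf proteins was neither marked nor searched. For Cox6a2 no promoter sequence was shown.

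Over all members, 69 of 84 had a promoter sequence, all motifs were searched on both strands except the TATA box TATAAA, and a gene counted when any of its starts had a match. NRF1 words were found before 12 of the 69 (17.4%) and before 6.47% of 17492 protein-coding genes. The GC box was found before 36.2% against 45.8%, the E-box before 8.70% against 13.8% and the TATA box before 2.90% against 9.11%. The word TCAAGGTCA of the estrogen-related receptors was found before 1 member, Atp5g3 (1.45% against 0.360%), and AAGATGGC of YY1 before 2, Atp5j and Atp5sl (2.90% against 1.77%). Of the 12 members with an NRF1 word, Ndufa8 was the one called for day 3 against day 0. Of the 6 with an E-box, Cox8b rose and Ndufa8 and Ndufb10 fell, beside 12.8% and 17.6% of all expressed transcripts. The falls of Ndufa8 and Ndufb10 were not called with median-ratio or upper-quartile scaling. These matches describe the letters in the window and not binding.

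Atp5s and Atp5sl had at most 256 reads in a library. Atp5s was at 27.9, 19.0, 39.7 and 51.8 in siCtrl cells and at 12.5, 34.0, 44.5 and 22.3 in siKlf5 cells, so it was lower in the knockdown on days 0 and 3 and higher on days 1 and 2. Atp5sl was at 25.8, 37.5, 52.3 and 45.6 in siCtrl cells and at 31.1, 22.7, 30.0 and 34.1 in siKlf5 cells. Neither passed a limma test, with estimates for day 3 against day 0 of 0.86 (SE 0.52) and 0.47 (SE 0.33).

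Other nuclear genes of mitochondria were set beside the subunits for day 3 against day 0. Of 77 genes of mitochondrial ribosomal proteins, which translate the mitochondrially encoded subunits, 29 (37.7%) fell and 0 rose, beside 17.6% of all transcripts lower, with a median of -0.34 on the log2 scale. With median-ratio scaling 23 were lower and 1 higher, beside 12.8% of all lower, with a median of -0.23. In limma without the trend 13 (16.9%) were lower, beside 9.54% of all. Mrpl12 was estimated at -1.12 (SE 0.14, adjusted p = 0.000840 by limma). Of 13 citric acid cycle genes 5 (38.5%) fell and 0 rose. With median-ratio scaling, with upper-quartile scaling or without the trend 2 (15.4%) were lower. The shares of all transcripts lower were then 12.8%, 13.1% and 9.54%. Idh3a, a subunit of isocitrate dehydrogenase, was estimated at -0.66 (SE 0.11, adjusted p = 0.00321 by limma), and Cs, citrate synthase, at -0.32 (SE 0.10, adjusted p = 0.0490 by limma). Of 35 assembly factors 3 rose (Cox14, Cox19 and Uqcc1) and 6 (17.1%) fell, beside 12.8% of all transcripts higher and 17.6% lower. Among those that fell was Cox10, an enzyme of haem a synthesis, with -1.05 (SE 0.22, adjusted p = 0.00890 by limma). Cycs, cytochrome c, and Cyc1, the cytochrome of complex III, fell by 0.70 (SE 0.13) and 0.50 (SE 0.12) on the log2 scale, and the other 3 genes of that list did not pass. Of the falls of Cycs and Cyc1, only that of Cycs was called with median-ratio or upper-quartile scaling, and 0 were without the trend. For the knockdown over the 4 days 0 genes of these 4 lists passed the test.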

How the data were processed

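Poly(A) RNA of 8 C2C12 libraries (siCtrl and siKlf5 on 4 days) was analysed, and 6 ChIP-seq samples were left out. Read pairs were aligned by the authors to mm9 with STAR, and exon reads per RefSeq transcript were counted with HOMER on both strands, keeping at most 3 reads per position and 1 transcript per gene. The deposited FPKM values are scaled to a matrix total of 10000000. The deposited log2 columns hold log2(FPKM + 1) with a number added before the logarithm, and they served in 1 alternative only. The log2 column without a day in its name, 1 in all, was not used. A normalization with DESeq2 is stated by the authors, but such values were not used. How reads with several places in the genome were treated is not given in the sources used here, and antisense genes can share reads.

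The reads behind each value were recovered from exon length and the step between low values, and 100% of the values checked lay within 0.1 of a whole number. Depth was 7850497 to 20301506 reads. Intervals (95%, exact Clopper-Pearson) used reads divided by 6, since reads came in groups, and cover counting error only.

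Tests used limma 3.58.1 (R 4.3.3) with a mean-variance trend on log2(FPKM + 0.1). They were two-sided, over 14312 transcripts with a mean of at least 1, with Benjamini-Hochberg adjustment over all of them and a threshold of 0.05. The added 0.1 understates changes between low values above 0, but it sets the size of a change from 0. For Cox6a2 the difference of day 3 against day 0 was 10.53 with 0.1 and 7.22 with pseudocount 1. The additive fit held siRNA and day, and the interaction fit held siRNA, day as a number and their product (4 residual degrees of freedom). P-values measure only the spread between these libraries. Of these fits, only the knockdown difference was tried on simulated data, with changes larger than those estimated for the members. Transcripts were aligned to mm9 with minimap2 2.31-r1302, and promoters were matched through RefSeq (GRCm38.p6). Gene coordinates on mm9 are taken from the deposited table. Other software was matplotlib 3.10.9, scipy 1.17.1, pandas 2.3.3 and numpy 2.4.6 under Python 3.11.15.

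The members and lists were chosen with earlier results of these data known. Genes were named by rule: paired or tissue-limited isoforms, the highest member of each complex, the 3 largest rises and falls from day 0 to day 3, members past 1.5-fold on at least 3 days, the 3 lowest and highest knockdown estimates (these with a mean of at least 10), and the members of any count of 5 or fewer. The further members called for day 3 against day 0, and those shown for a pattern over the 4 days, were named after their values were seen, and 1 is not reported here. Alternatives were pseudocount 1, no filter, a mean of at least 10, 2 other scalings, a 2-fold cutoff, leaving out transcripts over 1 read per base, leaving out each day, limma without the trend, day as a number and the deposited log2 columns.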

Additional observations from a re-analysis of the deposited data

How the results depend on the processing

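The median log2 ratio of siKlf5 to siCtrl on days 0, 1 and 3 moved by less than 0.08, the SD of the 4 daily medians, under every alternative run. On day 2 it was 0.0181 among the 12 members left without transcripts over 1 read per base. Counts of members past 1.5-fold are small and moved by 1 or 2. With a 2-fold cutoff 0 were higher and 1 lower on day 1, and 0 in either direction on day 2. On day 2, 2 were higher without a filter, with median-ratio or upper-quartile scaling and in the deposited log2 columns, and 0 without transcripts over 1 read per base. On day 3, 0 were higher with a mean of at least 10 and 2 with upper-quartile scaling. For the knockdown over the 4 days 0 members were called under each alternative, and the median of the members was -0.0769 without transcripts over 1 read per base and between 0.02 (without day 2) and 0.11 when a day was left out. For day 3 against day 0, the count of 7 higher and 10 lower became 2 and 1 without a filter, 3 and 1 of 12 without transcripts over 1 read per base, 2 and 0 in limma without the trend, and 6 lower with day as a number. With median-ratio scaling 1 was lower and the median was 0.00708, with upper-quartile scaling 2 were lower and the median was 0.00199, and without transcripts over 1 read per base the median was 0.46. When day 1 or day 2 was left out, between 4 and 6 were higher and 8 lower. Scaling moves every transcript alike, and without transcripts over 1 read per base fewer members were tested. The cause of the other changes was not tested. The deposited log2 columns were not run for day 1, the knockdown over the 4 days or the interaction, because 1 column carries no day. Of the 74 members with a mean of at least 100, 6 were higher and 10 lower for day 3 against day 0 in the fit over all transcripts, with a median of -0.13. Depth limits the ratios of genes with few reads, such as Cox7a1 and Cox8b on day 0.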
